A study of Mus musculus with 11 samples.

Results

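The 10 genes described here encode proteases of the epidermis and the proteins that hold them in check. They are Spink5, Klk5, Klk6, Klk7, Klk8, Klk10, St14, Prss8, Casp14 and Cst6. Every probe set whose platform annotation gave 1 of these symbols and no other was taken, which gave 11 probe sets among the 34945 with 1 gene symbol, and 10 genes among 18193. Casp14 had a pair of probe sets, and the other 9 genes had 1 each. Expression was measured on single-channel Affymetrix arrays in keratinocytes from the back skin of K5-myrAkt(L84) mice. These animals are a transgenic line that carries an activated form of the kinase Akt under the keratin 5 promoter, which is active in basal keratinocytes. The cells were labelled with an antibody to CD34, which marks bulge stem cells of the follicle in mice, and were separated with magnetic beads into CD34+ cells (5 arrays) and CD34- cells (6 arrays). Both groups carry the transgene, only 1 line was used, no cells without the transgene were analysed here, and the labels give no age, treatment or hair cycle stage. One label calls the CD34- samples hair follicle stem cells, whereas the design text sets them against the stem cells, and they are called CD34- cells here.

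Shedding of the outermost epidermal cells is controlled by a cascade of serine proteases. The membrane-bound protease matriptase (St14) and the anchored protease prostasin (Prss8) act early, and the secreted kallikreins Klk5 and Klk7 cut the junction proteins that hold corneocytes together. LEKTI, the product of Spink5, is the inhibitor that restrains these kallikreins, and its loss in humans causes Netherton syndrome, a disease of barrier failure. In a parallel branch, caspase-14 (Casp14) takes part in the breakdown of filaggrin, and cystatin E/M (Cst6) inhibits cysteine proteases such as legumain and the cathepsins.

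Values are log2 signals as deposited, so that a difference of 1 is a doubling, and all differences are CD34+ minus CD34-. A probe set was tested if it was not among the dimmest 40% by its mean over the arrays, and it was called higher or lower at an adjusted p under 0.05 (limma, adjusted over the 20967 probe sets tested). Of the 11 probe sets 9 passed this filter, those of 8 genes, and the probe sets of Klk6 and Klk10 did not. Among the 9, 2 were called higher (Spink5 and Klk5), 1 was called lower (1 of the Casp14 pair) and 6 were not called. Among all probe sets tested, 11.0% were called higher and 9.77% lower, so the number of calls in so short a list is near this background. The median difference of the 9 was 0.16, against 0.02 over all probe sets tested. Whether each array stands for its own animal is not stated, and p-values then measure the spread between these samples only. In bulk cells, fewer cells of a type and less RNA per cell cannot be told apart.

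Several facts of the arrays stand beside all results. Cd34, the gene used for the separation, had log2 signals between 10.54 and 12.92 on CD34+ arrays and between 2.00 and 5.50 on CD34- arrays. The actin ratio, which sets the 3-prime actin probe set against the 5-prime one as a log2 difference, becomes larger with shorter RNA. It was 2.91 to 5.25 on CD34+ arrays and 2.19 to 2.76 on CD34- arrays, and was highest on CD34+ arrays 1, 2 and 3. The ranges did not overlap, so a model with a term for this ratio cannot fully separate it from the group. Of the marker lists, 6 of 8 bulge genes and 4 of 4 tested fibroblast genes were higher in CD34+ cells, 2 of 6 basal keratinocyte genes and 4 of 4 tested T cell genes were lower, and none of 6 sebaceous gland genes was called. These counts use the brightest probe set of each gene, and a basal keratinocyte gene counted as lower had another probe set that was called higher. The part of the actin ratio and of these cell types in the results below was not tested, apart from the fits given in the section on processing.

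**Figure D1:**
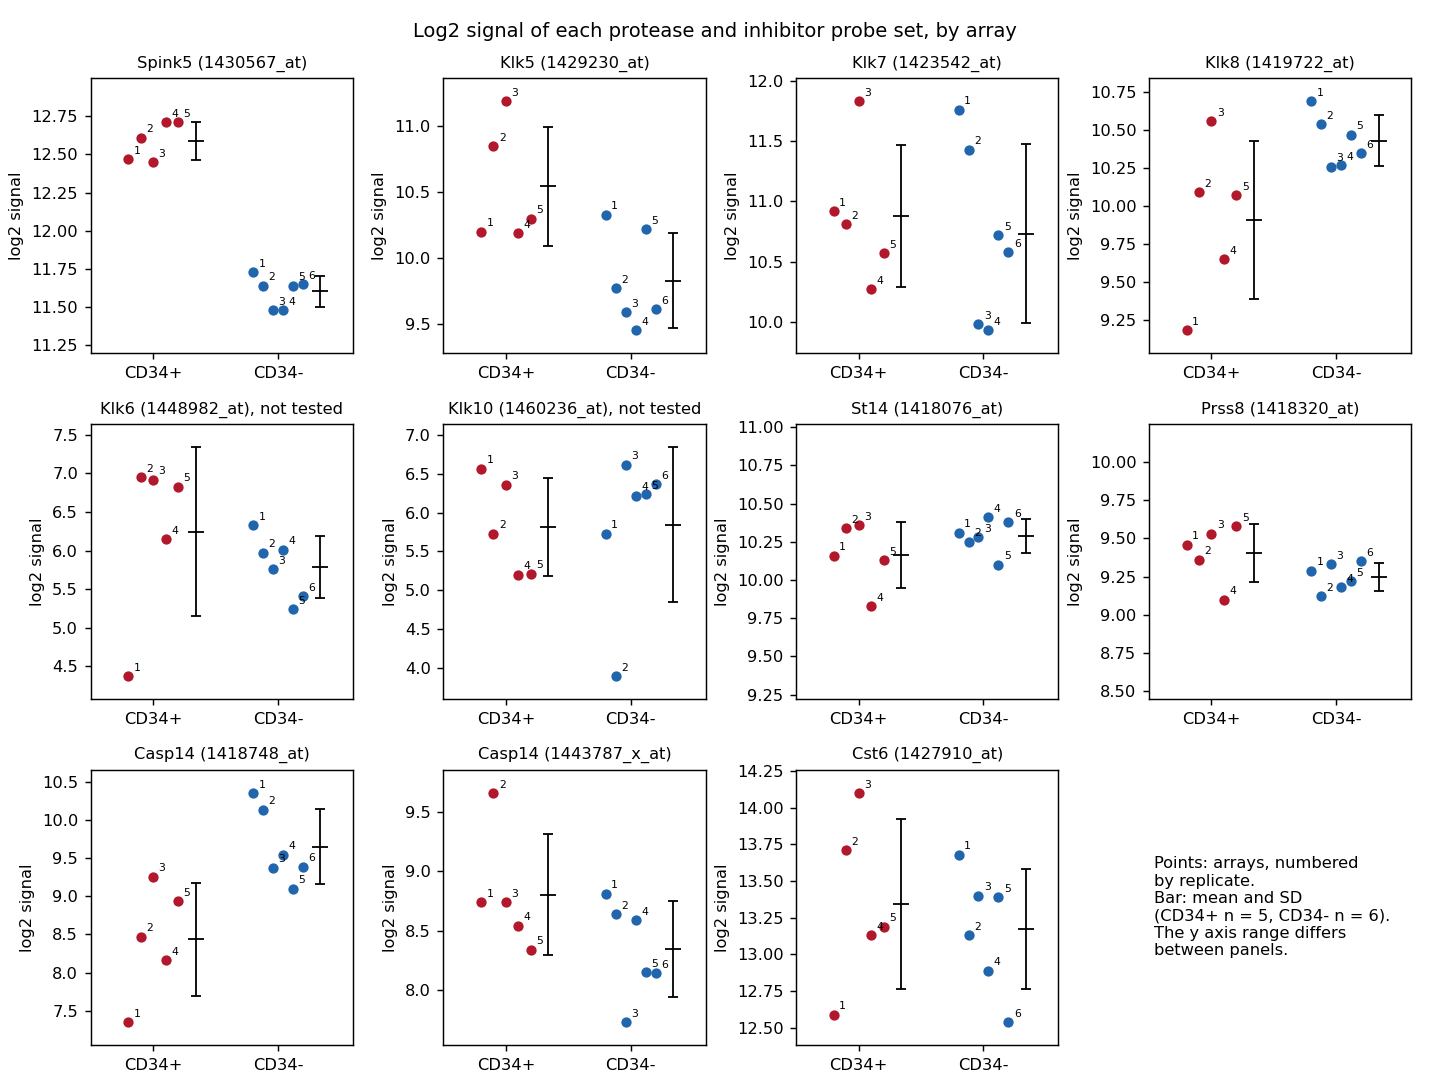
Log2 signal (y axis) of the 11 probe sets of the 10 genes on each of the 5 CD34+ and 6 CD34- arrays. Points are arrays with their replicate numbers, and bars are the mean and SD. Spink5 is the 1 tested gene whose groups are fully apart, while Klk7, Cst6, St14 and Prss8 overlap.

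Spink5, the kallikrein inhibitor, was higher in CD34+ cells. Its log2 signal was 12.47, 12.61, 12.45, 12.71 and 12.71 on CD34+ arrays 1 to 5, against 11.73, 11.64, 11.48, 11.48, 11.64 and 11.65 on CD34- arrays 1 to 6. The groups did not overlap, and the spread within each was narrow, with a range of 0.26 in both. The mean was 12.59 ± 0.13 in CD34+ cells (SD, n = 5) and 11.61 ± 0.10 in CD34- cells (SD, n = 6), a 1.98-fold higher signal. Its difference was 0.98 (SE 0.10, 95% confidence interval 0.76 to 1.21, limma adjusted p = 5.34e-05). Groups without overlap were seen for 1 of the 9 probe sets of these genes and for 13.4% of all probe sets tested. Spink5 was called in each of the 27 alternative settings, with differences between 0.63 and 1.10. With a term for the actin ratio in the model its difference was 1.10 (adjusted p = 0.0119), a setting in which 0.711% of all probe sets were called.

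Among the kallikreins, Klk5 was called higher and the others were not called. Klk5 encodes a trypsin-like protease that can activate itself and other kallikreins. Its log2 signal was 10.20, 10.85, 11.19, 10.19 and 10.30 on CD34+ arrays 1 to 5, against 10.33, 9.77, 9.59, 9.45, 10.22 and 9.61 on CD34- arrays 1 to 6. CD34+ arrays 2 and 3 lay above every CD34- array, and the other 3 lay within the CD34- range. The mean was 10.54 ± 0.45 (SD, n = 5) in CD34+ cells and 9.83 ± 0.36 (SD, n = 6) in CD34- cells. Klk5 thus differed by 0.72 (SE 0.22, 95% confidence interval 0.25 to 1.19, limma adjusted p = 0.0331), a 1.65-fold higher signal. This call was lost in 6 of the 11 fits without 1 array (CD34+ arrays 2 and 3 and CD34- arrays 2, 3, 4 and 6, adjusted p of 0.059 to 0.0737), and without CD34+ arrays 1, 2 and 3 the difference was 0.42 (adjusted p = 0.245). With equal array medians it was 0.36 (adjusted p = 0.216) and with the exact rank-sum test the adjusted p was 0.206.

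Klk7 encodes a chymotrypsin-like protease of the cornified layer. Its log2 signal was 10.92, 10.81, 11.83, 10.27 and 10.57 on CD34+ arrays 1 to 5, against 11.76, 11.43, 9.98, 9.93, 10.72 and 10.58 on CD34- arrays 1 to 6. Both groups spread over more than a doubling and overlapped over most of their range. Klk7 differed by 0.15 (SE 0.34, limma adjusted p = 0.784), and its 95% confidence interval of -0.58 to 0.87 holds changes in either direction.

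Klk8 encodes neuropsin, a trypsin-like kallikrein of the upper epidermis. Its log2 signal was 9.18, 10.09, 10.56, 9.65 and 10.07 on CD34+ arrays 1 to 5, against 10.69, 10.54, 10.26, 10.27, 10.47 and 10.35 on CD34- arrays 1 to 6. On 4 of 5 CD34+ arrays it lay below every CD34- array, and CD34+ array 3 lay within the CD34- range. The mean was 9.91 ± 0.52 (SD, n = 5) in CD34+ cells and 10.43 ± 0.17 (SD, n = 6) in CD34- cells. A difference of -0.52 resulted (SE 0.20, 95% confidence interval -0.95 to -0.08 before adjustment), which was not called (limma adjusted p = 0.0811). It was called in 1 of the 11 fits without 1 array (without CD34+ array 3, -0.68, adjusted p = 0.0198), and was -0.34 without CD34+ array 1 (adjusted p = 0.154). A term for the actin ratio gave -0.27 (adjusted p = 0.762), and leaving out CD34+ arrays 1 and 2 together gave -0.34 (adjusted p = 0.235). Klk8 was called lower without CD34+ arrays 1, 2 and 3 (-0.57, adjusted p = 0.038). It was also called lower with equal array medians (-0.87, adjusted p = 0.00811) and with array weights (-0.47, adjusted p = 0.0475).

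The remaining kallikreins were dim. Klk6, which encodes a trypsin-like protease also known from brain, had log2 signals of 4.37, 6.95, 6.92, 6.15 and 6.83 on CD34+ arrays 1 to 5, against 6.33, 5.97, 5.76, 6.01, 5.24 and 5.41 on CD34- arrays 1 to 6. These values were under the 40th percentile of their array on 2 of 5 CD34+ and 5 of 6 CD34- arrays. Klk10 had log2 signals of 6.57, 5.73, 6.36, 5.20 and 5.21 on CD34+ arrays 1 to 5, against 5.73, 3.89, 6.62, 6.22, 6.24 and 6.37 on CD34- arrays 1 to 6. Klk10 was under the 40th percentile on all 5 CD34+ arrays and on 2 CD34- arrays. The groups of both genes overlapped, and neither gene was tested at this brightness. With no filter on dim probe sets the limma adjusted p was 0.548 for Klk6 and 0.973 for Klk10.

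**Figure D2:**
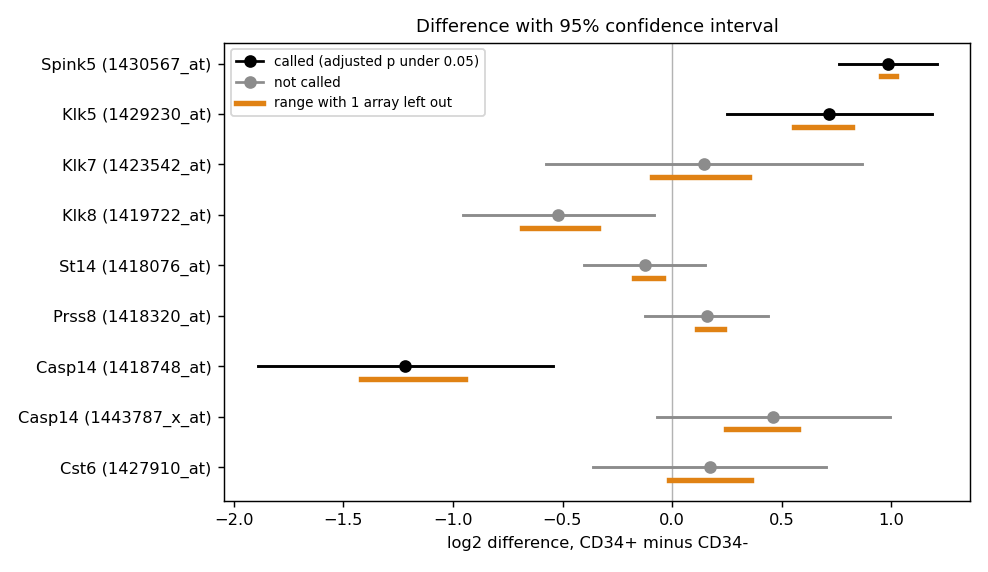
Log2 difference, CD34+ minus CD34- (x axis), of the 9 tested probe sets with 95% confidence intervals. Black probe sets were called, grey ones were not, and orange bars give the range over the 11 fits without 1 array. Spink5 (0.98) and Klk5 (0.72) lie to the right of 0 and the plain Casp14 probe set (-1.22) lies to the left, with the other Casp14 probe set on the opposite side.

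Klk5, Klk6, Klk7 and Klk8 stand next to each other in the kallikrein cluster on mouse chromosome 7, in the RefSeq annotation of GRCm38.p6. Along the cluster the differences of the 4 tested genes were -0.40 for Klk11 (limma adjusted p = 0.246), -0.52 for Klk8, 0.15 for Klk7 and 0.72 for Klk5. Klk4, Klk9, Klk12 and Klk13 were too dim to be tested, and Klk14 and Klk15 had no probe set. To set these genes side by side, the difference between a pair of probe sets was taken within each array, which removes any scaling of the array. A total of 7 pairs were taken, chosen after their values were seen, so the contrasts are given as a description with no test. The share of all pairs of tested probe sets without overlap was not computed.

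**Figure D3:**
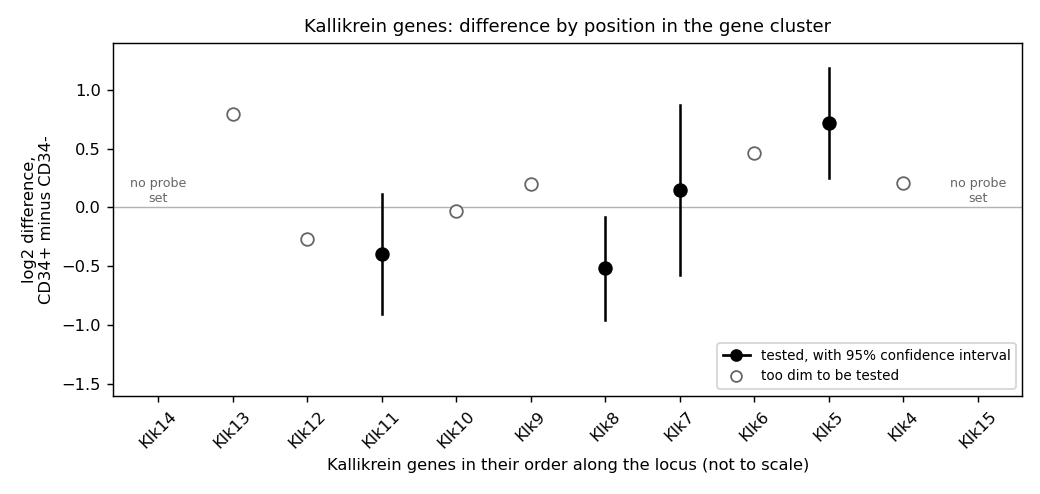
Log2 difference, CD34+ minus CD34- (y axis), of kallikrein genes in their order along the locus (x axis, not to scale). Filled points with 95% confidence intervals were tested, and open points were too dim to be tested. The difference is -0.52 at Klk8 and 0.72 at Klk5.

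The log2 signal of Klk5 minus that of Klk8 was 0.63 ± 0.29 on CD34+ arrays (SD, n = 5) and -0.60 ± 0.24 on CD34- arrays (SD, n = 6), a difference of 1.24 with no overlap. Spink5 minus Klk8 was 2.68 ± 0.54 on CD34+ arrays (SD, n = 5) and 1.18 ± 0.09 on CD34- arrays (SD, n = 6), a difference of 1.50 with no overlap. For the other 4 pairs the groups overlapped. Their differences were 0.27 for Spink5 minus Klk5, 0.84 for Spink5 minus Klk7, 0.57 for Klk5 minus Klk7 and 0.67 for Klk7 minus Klk8. Without CD34+ arrays 1 and 2 the contrast of Klk5 with Klk8 was 1.07 and that of Spink5 with Klk8 was 1.35.

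The sequences around the start sites of Klk5 and Klk8 are shown because these near neighbours had the highest and the lowest difference of the 4 kallikreins tested in the cluster. Each run holds 250 bases before and 50 after the start site listed in the RefSeq promoter table for GRCm38.p6, written 5′ to 3′. Klk5 lies at chr7:43842019-43842318 and Klk8 at chr7:43797327-43797626, both on the plus strand. Capitals mark CACCC, the core of the box bound by Krüppel-like factors, on either strand.
Klk5: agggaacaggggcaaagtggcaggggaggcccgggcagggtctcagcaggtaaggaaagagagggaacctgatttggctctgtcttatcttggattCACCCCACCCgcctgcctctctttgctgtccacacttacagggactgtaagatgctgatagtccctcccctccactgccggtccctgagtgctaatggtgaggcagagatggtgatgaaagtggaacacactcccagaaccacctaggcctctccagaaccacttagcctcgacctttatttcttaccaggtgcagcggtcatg
Klk8: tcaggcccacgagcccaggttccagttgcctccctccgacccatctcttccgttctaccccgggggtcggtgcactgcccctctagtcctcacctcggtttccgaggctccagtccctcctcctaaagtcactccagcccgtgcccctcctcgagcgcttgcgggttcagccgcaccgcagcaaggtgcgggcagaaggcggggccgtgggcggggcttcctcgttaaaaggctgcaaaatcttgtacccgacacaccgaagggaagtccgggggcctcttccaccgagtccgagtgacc
The Klk5 window holds 2 matches, which lie side by side, and the Klk8 window holds none, while 57.5% of all promoters in the table hold at least 1. Neither window holds TGANTCA (AP-1, in 7.81% of promoters), TATAAA (the TATA box, in 13.6%) or AACNGGTT (Grainyhead-like factors, in 2.09%) on either strand. CACCC was added to the search after these 3 motifs had given no match.

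**Figure D4:**
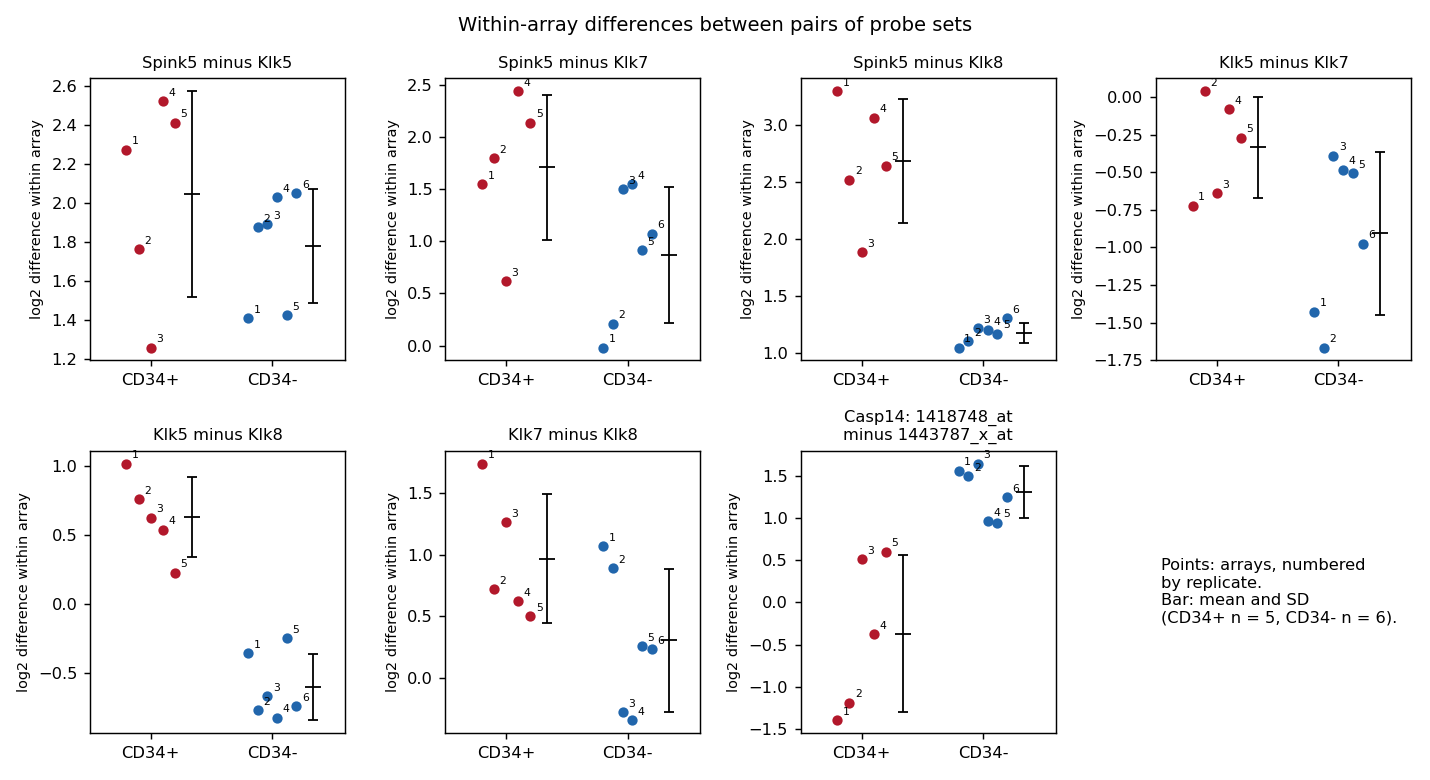
Log2 signal of a probe set minus that of another on the same array (y axis), for the 7 pairs described. Points are arrays with their replicate numbers, and bars are the mean and SD. Spink5 minus Klk8, Klk5 minus Klk8 and the Casp14 pair show no overlap between CD34+ and CD34- arrays, and the other 4 overlap. The pairs were chosen after their values were seen, and no share over all pairs was computed.

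Neither of the proteases that act upstream of the kallikreins was called. St14, which encodes matriptase, had log2 signals of 10.16, 10.34, 10.36, 9.83 and 10.13 on CD34+ arrays 1 to 5, against 10.31, 10.25, 10.28, 10.41, 10.10 and 10.38 on CD34- arrays 1 to 6. The groups overlapped, and St14 differed by -0.12 (SE 0.13, 95% confidence interval -0.40 to 0.15, limma adjusted p = 0.51). With equal array medians, which shift the median of all probe sets by -0.35, St14 had a difference of -0.48 and was called.

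Prss8, which encodes prostasin, a protease that matriptase acts with, had log2 signals of 9.46, 9.36, 9.53, 9.10 and 9.58 on CD34+ arrays 1 to 5, against 9.29, 9.12, 9.33, 9.18, 9.22 and 9.35 on CD34- arrays 1 to 6. On 4 of 5 CD34+ arrays it lay above every CD34- array, and CD34+ array 4 lay below all of them. Prss8 differed by 0.16 (SE 0.13, 95% confidence interval -0.12 to 0.44, limma adjusted p = 0.407). For both genes the interval leaves out a change of a doubling in either direction.

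Casp14, the caspase of terminally differentiating keratinocytes, gave opposite differences on its pair of probe sets, called plain and x-type here after the suffix of their names. On the plain one its log2 signal was 7.35, 8.47, 9.26, 8.16 and 8.94 on CD34+ arrays 1 to 5, against 10.36, 10.14, 9.38, 9.55, 9.10 and 9.39 on CD34- arrays 1 to 6. On 4 of 5 CD34+ arrays it lay below every CD34- array, and CD34+ array 3 lay above 1 of them. The mean was 8.44 ± 0.74 (SD, n = 5) in CD34+ cells and 9.65 ± 0.49 (SD, n = 6) in CD34- cells. This was a difference of -1.22 (SE 0.32, 95% confidence interval -1.89 to -0.54, limma adjusted p = 0.0164).

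On the x-type probe set, whose suffix marks probes that may bind other transcripts too, the log2 signal of Casp14 was 8.74, 9.66, 8.74, 8.54 and 8.34 on CD34+ arrays 1 to 5. It was 8.81, 8.64, 7.73, 8.59, 8.15 and 8.14 on CD34- arrays 1 to 6. Here the difference was 0.46 (SE 0.25, 95% confidence interval -0.07 to 0.99) and was not called (limma adjusted p = 0.195). The signal of the plain Casp14 probe set minus that of the x-type one was -0.37 ± 0.93 on CD34+ arrays (SD, n = 5) and 1.31 ± 0.31 on CD34- arrays (SD, n = 6), without overlap. This contrast of -1.68 was -1.06 without CD34+ arrays 1 and 2. The lower Casp14 signal thus rests on 1 probe set of the pair.

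The call of the plain Casp14 probe set held in all 11 fits without 1 array (differences of -1.42 to -0.94). A term for the actin ratio ended it (-0.64, SE 0.47, adjusted p = 0.608), in a setting in which 0.711% of all probe sets were called. Leaving out CD34+ arrays 1 and 2 together also ended it (-0.86, adjusted p = 0.0664). Without CD34+ arrays 1, 2 and 3 the difference was -1.10 (adjusted p = 0.0404).

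The start region of Casp14 is shown because its plain probe set had the lowest difference of the tested probe sets of these genes. It lies at chr10:78718244-78718543 on the minus strand of GRCm38.p6 in the RefSeq table, and CACCC on either strand is again in capitals.
Casp14: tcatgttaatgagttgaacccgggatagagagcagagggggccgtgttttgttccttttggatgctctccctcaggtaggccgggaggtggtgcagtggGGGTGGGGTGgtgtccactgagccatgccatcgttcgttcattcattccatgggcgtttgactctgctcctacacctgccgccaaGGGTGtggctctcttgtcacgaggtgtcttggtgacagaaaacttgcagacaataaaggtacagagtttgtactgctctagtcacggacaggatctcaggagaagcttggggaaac
The window holds 3 matches to CACCC, 2 of which lie side by side, and none to the other motifs searched.

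Cst6, the inhibitor of cysteine proteases that is expressed in the upper follicle and the granular layer, had log2 signals of 12.59, 13.71, 14.10, 13.13 and 13.19 on CD34+ arrays 1 to 5, against 13.68, 13.13, 13.40, 12.89, 13.39 and 12.54 on CD34- arrays 1 to 6. CD34+ arrays 2 and 3 lay above every CD34- array, and the other 3 within the CD34- range. Cst6 differed by 0.17 (SE 0.25, 95% confidence interval -0.36 to 0.70, limma adjusted p = 0.644).

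The arrays that were high were often the same for several of these genes. Among CD34+ arrays, array 3 had the highest value for 6 of the 9 tested probe sets, namely Klk5, Klk7, Klk8, St14, Casp14 (plain) and Cst6. Among CD34- arrays, array 1 had the highest value for 7 of the 9, the exceptions being St14 and Prss8. In CD34+ cells the exceptions were Spink5, Prss8 and Casp14 (x-type), and array 3 had the lowest Spink5 value. How often these arrays had the highest value over all tested probe sets was not counted. The 7 suprabasal keratinocyte markers, set against their CD34- means, had a median deviation of 0.75 on CD34+ array 3 and of -0.07 to 0.64 on the other CD34+ arrays. It was 0.36 and 0.50 on CD34- arrays 1 and 2 and -0.35 to 0.07 on the other CD34- arrays. All 7 were bright enough to be tested, 2 were called higher (Sbsn, and Lor, which is also in a list of the wider network) and none lower, and their summed signal was 92652 to 150322 on CD34+ arrays and 74084 to 102092 on CD34- arrays. The brightest of them were Krt10 (0.36, SE 0.12, limma adjusted p = 0.0501), a keratin of the spinous layer, and Sbsn (0.60, SE 0.18, limma adjusted p = 0.034), which encodes suprabasin and whose other probe sets differed by 0.62 and 0.02. The call of Sbsn was lost in 6 of the 11 fits without 1 array, and without CD34+ arrays 1, 2 and 3 its difference was 0.12. Krt1, the keratin partner of Krt10, pointed the other way (-0.82, SE 0.29, limma adjusted p = 0.0543) and Ivl, which encodes involucrin, differed by -0.05 (limma adjusted p = 0.894). These 2 were named after their values were seen. Their part in the values of the proteases was not tested.

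The wider network of epidermal proteolysis was described with 9 lists of 115 genes, each represented by its brightest probe set. Of these, 78 were tested, 10 were called higher and 9 lower, against 11.6% higher and 10.5% lower over all 11891 genes tested in this way. The median difference was 0.08, against 0.02 over all genes. Both directions occurred in 5 of the 9 lists, so the lists did not move as 1 block. With a term for the actin ratio 2 genes of these lists were called, both higher (Ctss and Tgm5).

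Among other serine protease inhibitors, 3 of 17 tested were called higher and 1 lower, with a median of 0.03. Serpinb11, a clade B serpin, had the largest difference of these (2.85, SE 0.42, limma adjusted p = 0.000648), with log2 signals of 10.89 to 13.10 on CD34+ arrays and 8.27 to 9.83 on CD34- arrays. Wfdc21, which encodes a small secreted protein with a whey acidic protein domain, was higher by 1.39 (SE 0.23, limma adjusted p = 0.00127). Serpinb2, which encodes plasminogen activator inhibitor 2, was lower by -1.38 (SE 0.28, limma adjusted p = 0.00441), at 11.95 ± 0.74 in CD34+ cells (SD, n = 5) and 13.33 ± 0.34 in CD34- cells (SD, n = 6). Serpina12, named after its value was seen to complete the count, was higher by 0.70 (SE 0.19, limma adjusted p = 0.0227). Spint1 (0.07, limma adjusted p = 0.759) and Spint2 (-0.13, limma adjusted p = 0.325), the membrane inhibitors of matriptase and also named after their values were seen, were not called on their brightest probe sets, but the other Spint2 probe set was lower by -0.59 and was called (limma adjusted p = 0.0127).

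Of the 10 tested membrane-anchored and trypsin-like serine proteases other than St14 and Prss8, 1 was called lower, and none was called higher. This was Htra1, a secreted protease (-0.53, SE 0.13, limma adjusted p = 0.0119), whose other probe set differed by -0.63. Neither of the 2 other kallikreins tested, Klk1 and Klk11, was called.

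On the cysteine protease side, 1 of 13 cathepsin and legumain genes was called higher and 3 were lower. Ctsh, a lysosomal aminopeptidase, was lower by -0.55 (SE 0.14, limma adjusted p = 0.014), but its other probe set differed by -0.14 and was not called. The Ctsh call was lost without CD34+ arrays 1 and 2 (-0.39, limma adjusted p = 0.0701) and without arrays 1, 2 and 3 (-0.32, limma adjusted p = 0.168). Ctsd, named after its value was seen, is an aspartic protease and was lower by -0.62 (SE 0.16, limma adjusted p = 0.0159). Ctsw, a cathepsin of T and natural killer cells, had the lowest difference (-2.08, SE 0.36, limma adjusted p = 0.00186). Of the 5 tested cystatin and stefin genes besides Cst6, 2 were called higher and 1 lower. Cst7, which encodes cystatin F of cytotoxic cells, was lower by -1.76 (SE 0.47, limma adjusted p = 0.0183), but was dim, with log2 signals of 3.90 to 6.50 on CD34+ arrays and 6.59 to 7.54 on CD34- arrays. Its difference was -0.41 when values under the 40th percentile were raised to it (adjusted p = 0.146) and -0.72 without CD34+ arrays 1, 2 and 3 (adjusted p = 0.152). Beside Ctsw and Cst7, all 4 tested T cell markers were lower, and their summed signal was 357 to 1310 on CD34+ arrays and 1828 to 3832 on CD34- arrays. The brightest were Thy1 (-1.20) and Cd3g (-2.69, a call lost in 4 of the 11 fits without 1 array), 1 of the 7 markers was too dim to be tested, and the part of T cells in these differences was not tested.

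Ctss, a cathepsin of antigen presenting cells, was higher by 0.63 (SE 0.20, limma adjusted p = 0.0352), a call that was lost in 7 of the 11 fits without 1 array. With equal array medians its difference was 0.28 (adjusted p = 0.376). It was 1.24 with a term for the actin ratio (adjusted p = 0.0337) and 1.17 without CD34+ arrays 1, 2 and 3 (adjusted p = 0.000469). Of the 8 tested antigen presenting and myeloid markers, 3 were called higher and none lower, with summed signals of 6807 to 19854 on CD34+ arrays and 9832 to 12252 on CD34- arrays. The brightest were Epcam (-0.64, not called) and H2-Aa (0.95, called). Csta1, a stefin A gene with near-identical copies that probes may not separate, was higher by 1.48 (SE 0.34, limma adjusted p = 0.00937). The Csta1 call held in all 11 fits without 1 array. It was lost without CD34+ arrays 1 and 2 (1.17, limma adjusted p = 0.0506) and without arrays 1, 2 and 3 (0.90, limma adjusted p = 0.165). With the exact rank-sum test the adjusted p of Csta1 was 0.0731. Cstb, which encodes stefin B, was higher by 0.39 (SE 0.11, limma adjusted p = 0.0239), while its other probe set differed by 0.01. The Cstb call was lost in 3 of the 11 fits without 1 array and with quantile normalization (0.21, adjusted p = 0.0503), and with equal array medians the difference was 0.03 (adjusted p = 0.848).

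The enzymes and substrates at the end of the pathway were mixed. Of 9 tested filaggrin processing enzymes 1 was called higher and 1 lower, both calpain large subunits. Capn2 was higher by 1.02 (SE 0.20, limma adjusted p = 0.0038), and Capn1 was lower by -1.67 (SE 0.20, limma adjusted p = 0.000145), with log2 signals of 8.14 to 8.88 on CD34+ arrays and 9.65 to 10.67 on CD34- arrays. The other Capn1 probe set differed by -1.03 and was not called (limma adjusted p = 0.0732). Asprv1, the retroviral-like protease that cuts profilaggrin, and Blmh, which degrades its products, were named after their values were seen and differed by 0.30 and 0.04, neither called. Of 7 caspases besides Casp14, 1 was called, Casp2, which was lower by -1.02 (SE 0.18, limma adjusted p = 0.00243).

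Tgm5, a transglutaminase that cross-links proteins of the cornified envelope, was higher by 2.93 (SE 0.33, limma adjusted p = 7.64e-05), with log2 signals of 11.26 to 13.55 on CD34+ arrays and 9.29 to 9.85 on CD34- arrays. It was 1 of 4 transglutaminases tested, and the other 3 were not called. Of 11 substrates and protease-sensed proteins, 2 were called higher and 1 lower. Hrnr, which encodes the filaggrin-like protein hornerin, was higher by 1.44 (SE 0.32, limma adjusted p = 0.00822). Lor, which encodes the envelope protein loricrin, was higher by 1.02 (SE 0.33, limma adjusted p = 0.0399), and Dsg1b, a desmoglein whose paralogs its probes may not separate, was lower by -0.88 (SE 0.29, limma adjusted p = 0.0456). The calls of Lor and Dsg1b were each lost in 7 of the 11 fits without 1 array.

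**Figure D5:**
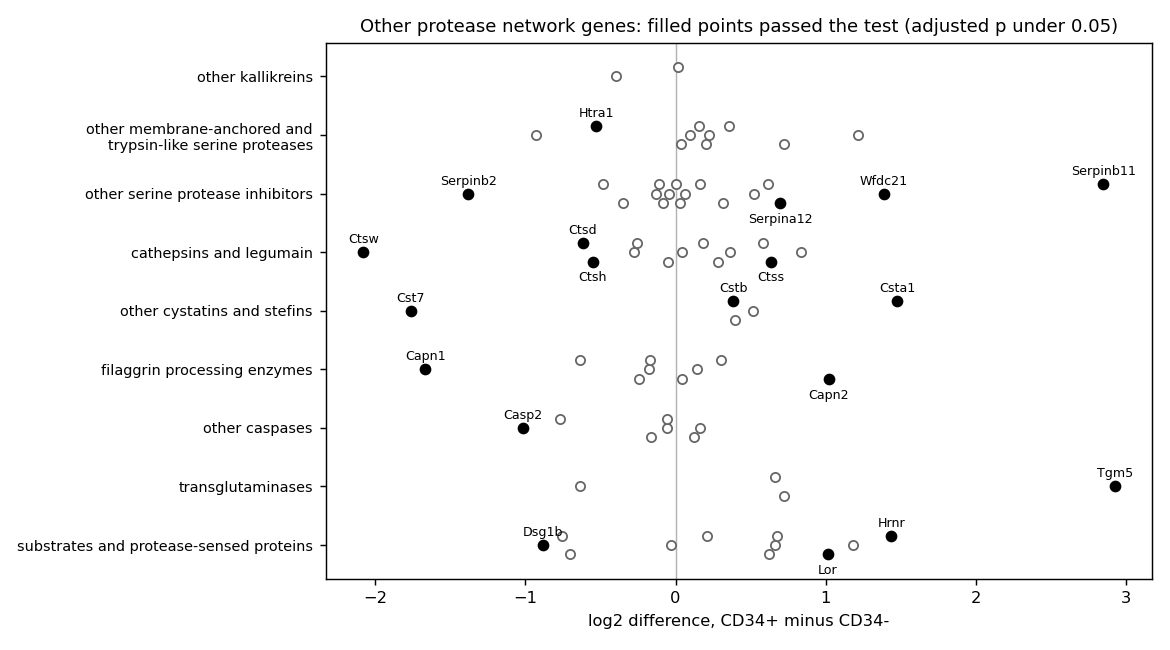
Log2 difference, CD34+ minus CD34- (x axis), of the 78 tested genes of the wider protease network in 9 lists (y axis). Each point is a gene on its brightest probe set, and filled points with names were called. Tgm5 (2.93) and Serpinb11 (2.85) lie farthest to the right and Ctsw (-2.08) farthest to the left.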

How the data were processed

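RNA of 5 CD34+ and 6 CD34- keratinocyte samples was measured. The authors deposited 1 log2 value per probe set and array, and the submitters' processing notes name MAS5. The version was not given in the sources used here. All linear signals had a 2% trimmed mean of 500.002 to 500.004 on every array, from which the log2 scale was read. The values were used as deposited. A low value was read as dim, not absent, and the number of arrays limits the precision (median SE of a log2 difference 0.22).

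Symbols came from the platform annotation, and for 34741 of 34945 probe sets the symbol was replaced or kept by looking up the gene identifier among the GRCm38.p6 names. Probe sets with several symbols (932) or none (9160) and 64 controls were left out. Genes on more than 1 probe set were represented by the brightest, except that every probe set of the 10 genes was tested by itself. CD34+ minus CD34- was fitted with limma 3.58.1 in R 4.3.3 (eBayes with an intensity trend, Benjamini-Hochberg), a step tested on simulated data. The members, the gene lists and the tests were chosen with earlier results of these data known. Genes named besides the 10 are Cd34, the other genes of the kallikrein list whatever their values, the 2 called genes with the smallest p in each direction of each network list, and the 2 brightest of the 3 marker lists set beside a result, beside genes marked in the text as chosen after their values were seen. Other marker lists appear only as counts or array values, and of those not yet mentioned the infundibulum list (Cst6 is in it) had 1 of 7 genes called higher and the endothelial and mural list 1 of 3. Alternatives were other normalizations, filters, offsets and moderation, weighting of arrays, exact rank sums, a stricter threshold, the replicate number as a block, a term for the actin ratio and fewer arrays.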

Additional observations from a re-analysis of the deposited data

Results flagged for a closer look

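Of 48 groups of values examined, 2 held an array whose gap to the nearest other array took up more of the group's range than Dixon's limit at the 95% level allows. Chance alone marks about 1 in 20 groups. Klk10 was at 3.89 on CD34- array 2, against 5.73 to 6.62 on the other CD34- arrays, with a gap of 0.674 of the range. The inner root sheath and hair shaft marker list had a median deviation of 2.70 from its CD34- mean on CD34+ array 1, against -0.07 to 0.35 on the other CD34+ arrays, with a gap of 0.848 of the range.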

How the results depend on the processing

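Spink5 was called in the same direction in all 27 alternatives, and the plain Casp14 probe set in 24 of them. The number of the 10 genes' probe sets called higher was 1 in place of 2 (Klk5 lost) at an adjusted p under 0.01, with equal array medians, the exact rank-sum test, the replicate block, the actin ratio as a covariate and without CD34+ arrays 1 and 2 or, added after the data were examined, 1 to 3. Leaving out 1 array gave 1 to 2. The number called lower was 0 at 0.01, with the actin ratio and without CD34+ arrays 1 and 2. It was 2 with array weights and without CD34+ arrays 1 to 3 (Klk8 added in both), 3 with equal medians (Klk8 and St14 added), and 1 to 2 without 1 array. Over all probe sets, 4344 were called. The counts were 1511 at 0.01, 7154 with equal medians (12.8% of them higher, against 52.9%, and 44.8% after quantile normalization), 2697 with 1 probe set per gene, 149 with the actin ratio, 2881 without CD34+ arrays 1 and 2, and 2809 without arrays 1 to 3. With the dimmest 60% left out, 42.1% of the calls were higher. Network calls were 10 at 0.01 (6 higher, 4 lower) and 2 with the actin ratio (2 higher, 0 lower). With equal medians 6 were higher and 19 lower, without CD34+ arrays 1 and 2 there were 5 lower, and without arrays 1 to 3 there were 6 higher. Without 1 array 6 to 12 were higher, the fewest without CD34- array 4. The cause of these changes was not tested.

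Uncalled differences that changed sign were those of Klk7 (-0.21 with equal medians, -0.27 with the actin ratio, -0.32 without CD34+ arrays 1 to 3, -0.091 to 0.351 without 1 array), Prss8 (-0.20 with equal medians) and Cst6 (-0.18 with equal medians, -0.009 without CD34+ arrays 1 to 3, -0.016 to 0.36 without 1 array). Krt10 was -0.10 when quantiles were equalised. In the fit on the actin ratio Sbsn was -0.034, Cd3g 0.48 and Epcam 0.44. Epcam was 0.075 without CD34+ arrays 1 to 3. Whether the arrays' replicate numbers pair them is not stated. Deviations of same-numbered arrays correlated at 0.017 to 0.18, and no array correlated best with its own number. Low correlations between different cell groups cannot settle whether the arrays are paired. With the replicate block 3034 probe sets were called.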

Other observations

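CD34- arrays 1 and 2 stood apart from CD34- arrays 3 to 6 for some of these genes. Klk7 was at 11.76 and 11.43 on them, against 9.93 to 10.72 on the other 4, and Casp14 on its plain probe set was at 10.36 and 10.14, against 9.10 to 9.55. The melanocyte marker list had median deviations of 1.29 and 1.25 on these arrays and of -0.81 to -0.41 on the other CD34- arrays. It was not the only list to split in this way. The fibroblast list was at 0.61 and 0.49, against -0.57 to -0.06. The inner root sheath and hair shaft list was at 0.46 and 0.63, against -0.44 to -0.07. The T cell list went the other way, at -0.69 and -0.56, against 0.25 to 0.4. The basal keratinocyte list was at -0.04 on both arrays, within the -0.19 to 0.21 of the others. Spink5 (11.73 and 11.64, against 11.48 to 11.65) and Prss8 (9.29 and 9.12, against 9.18 to 9.35) showed no such gap. This pattern was noticed in the data and was not tested.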
